A study of Oryza sativa Japonica Group with 24 samples.

Results

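Lipoxygenases are the iron-containing dioxygenases that start oxylipin synthesis, and 10 rice lipoxygenase genes were followed here through roots and shoots of seedlings that differed in the transcription factor bHLH6, in SPX4 or in phosphate (Pi) supply. The 10 genes were taken by locus from the 57668 features of the deposited expression table. All 10 carried the description of a lipoxygenase C-terminal domain, which 18 features in the table shared, so 8 described features were not members. The libraries came from Oryza sativa Japonica, in 8 groups of 3. The groups were the bHLH6 OV line (bHLH6-OV) at 200 µM Pi, the spx4 T-DNA line (spx4) at 200 µM Pi, wild type (WT) at 10 µM Pi (low Pi) and WT at 200 µM Pi (high Pi), each as root and as shoot. Seedlings were 7 days old when the Pi supply began, it lasted 2 weeks, and each library held the pooled tissue of 3 seedlings. Neither the promoter of the overexpression line nor the number of lines behind each genotype is given in the sources used here, so an effect of a line cannot be told apart from that of its gene. Reads counted in genes came to 20971026 to 29645159 per library. Every level below is in FPKM, fragments scaled to gene length and sequencing depth, as the authors deposited them. These are levels in whole organs, in which fewer cells of a type and less RNA per cell cannot be told apart.

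As background, lipoxygenases insert oxygen into linoleic or linolenic acid and are named after the carbon they oxidise. Plastid 13-lipoxygenases (13-LOX) give 13-hydroperoxides, which allene oxide synthase (AOS) and allene oxide cyclase (AOC) carry towards jasmonate and hydroperoxide lyase (HPL) carries towards green leaf volatiles. The 9-lipoxygenases (9-LOX) give 9-hydroperoxides, which lead to other oxylipins and, in stored rice grain, to stale flavour. Jasmonates and other oxylipins are best known from wounding, herbivory and infection.

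The 10 members lay on 3 chromosomes, with coordinates as the authors' table gives them and no genome build named in the sources used here. Among the 6 members counted as 13-LOX, LOC_Os12g37260, known as the chemically induced plastid enzyme RCI-1, spanned chr12:22854611-22860200 on the minus strand. Its relatives LOC_Os12g37320 and LOC_Os12g37350 lay 59.9 kb further on and another 11.0 kb beyond, on the plus strand, and their summed exon lengths of 1520 and 1353 bases were below the 3218 bases of LOC_Os12g37260. On chromosome 8, LOC_Os08g39840 (the herbivore-induced HI-LOX of jasmonate synthesis, chr8:25216363-25224080, minus strand) and LOC_Os08g39850 (chr8:25240906-25250279, plus strand) were next to each other on opposite strands, 16.8 kb apart with 0 features between them. LOC_Os03g08220 at chr3:4187107-4193539 had no member near it. Among the 4 members counted as 9-LOX, LOC_Os03g49260 (chr3:28049441-28053725), LOC_Os03g49350 (chr3:28091611-28094613) and LOC_Os03g49380 (chr3:28106903-28113300) formed a run on the plus strand of chromosome 3. LOC_Os03g52860, an enzyme known from seed storage, followed at chr3:30315455-30318972. These genes belong to 1 family, their sequences were not compared here, and how reads that match several copies were counted is not given in the sources used here, so the division of reads between neighbours is uncertain.

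The libraries carried the labelled manipulations. The bHLH6 gene stood at 115, 124 and 164 FPKM in bHLH6-OV roots against 5.35, 5.66 and 3.24 FPKM in WT high Pi roots, and at 85.8, 110 and 120 FPKM in bHLH6-OV shoots against 5.21, 5.22 and 5.29 FPKM in WT high Pi shoots. SPX4 RNA was lower in spx4 roots (6.69, 5.21 and 6.73 FPKM) than in WT high Pi roots (11.4, 11.4 and 11.1 FPKM) and was not lost. In shoots each line also differed in the other gene. SPX4 was at 8.85 to 11.6 FPKM in bHLH6-OV shoots and 6.82 to 8.6 FPKM in spx4 shoots, against 12.6 to 15.6 FPKM in WT high Pi shoots. The bHLH6 gene was at 14.5 to 32.8 FPKM in spx4 shoots, though limma did not call it higher than in WT (adjusted p under 0.05). The root marker RCc3 (LOC_Os02g44310) was at 1202 to 2437 FPKM in roots and at most 0.552 FPKM in shoots, and the Rubisco small subunit gene LOC_Os12g19381 was at 2186 to 14445 FPKM in shoots and 1.47 to 109 FPKM in roots. One library, replicate 1 of the WT shoots at low Pi, differed most from its group, with LOC_Os12g19381 at 2186 FPKM against 7769 and 7032 FPKM in the other replicates. The smallest correlation of log2(FPKM + 1) between replicates of a group was 0.9851.

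The members divided by organ along the line between their enzyme classes. In WT at high Pi each of the 8 members with enough signal differed between root and shoot, against 84.2% of the 22980 genes tested (45.3% higher and 38.9% lower in roots): the 4 tested 13-LOX genes were lower in roots and the 4 9-LOX genes were higher in roots (limma, adjusted p under 0.05). LOC_Os12g37260 in roots and LOC_Os03g49260 and LOC_Os03g49350 in shoots were below 1 FPKM in every library. These genes entered the test through the organ where they are high, so their calls add no independent support. LOC_Os12g37260 averaged 0.0449 ± 0.0122 FPKM in WT high Pi roots and 49.2 ± 32.6 FPKM in WT high Pi shoots (SD, n = 3 each). LOC_Os08g39840 averaged 1.19 ± 0.363 FPKM in roots and 72.6 ± 6.23 FPKM in shoots, and LOC_Os03g08220 was the most evenly spread of the class, at 8.74 ± 0.59 FPKM in roots and 20.5 ± 1.48 FPKM in shoots. In the other direction, LOC_Os03g52860 averaged 148 ± 14 FPKM in roots and 2.38 ± 3.07 FPKM in shoots, and LOC_Os03g49260 averaged 30.5 ± 1.48 FPKM in roots and 0.742 ± 0.128 FPKM in shoots. The 9-LOX gene least tied to roots was LOC_Os03g49380, at 38.4 ± 2.83 FPKM in roots and 5.15 ± 0.543 FPKM in shoots.

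On the log2(FPKM + 1) scale these differences ran from -5.40 ± 0.47 (SE) for LOC_Os12g37260 to 5.87 ± 0.49 for LOC_Os03g52860, and the largest of the 8 adjusted p-values was 3.31e-05 for LOC_Os08g39850. The 8 directions and calls were the same in every alternative run. On the TPM scale, which gives every library the same sum, the median of all genes tested was 0.58, against 0.10 on the deposited scale. The TPM run tested genes with a mean of at least 1 TPM, so these medians cover different sets of genes. LOC_Os03g08220, the smallest difference, was at -0.69 on the TPM scale, against -1.14 as deposited. The 6 13-LOX genes made up 3.57% to 6.77% of the 10 members' summed FPKM in the 12 root libraries. In the 12 shoot libraries they made up 94.1% to 97.8%, so these ranges did not overlap. The sums leave out the 8 other features described as lipoxygenases. Of those, LOC_Os02g10120 averaged 155 FPKM in bHLH6-OV shoots and 117 FPKM in spx4 shoots, above LOC_Os12g37260 at 134 and 78.2 FPKM. In WT low Pi shoots LOC_Os02g10120 averaged 92.3 FPKM, below LOC_Os12g37260 at 501 FPKM. LOC_Os03g52860 was the most abundant member in each of the 12 root libraries, and LOC_Os12g37260 was the most abundant in 10 of the 12 shoot libraries. In WT high Pi shoot replicates 1 and 2 LOC_Os08g39840 was ahead of it.

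**Figure D1:**
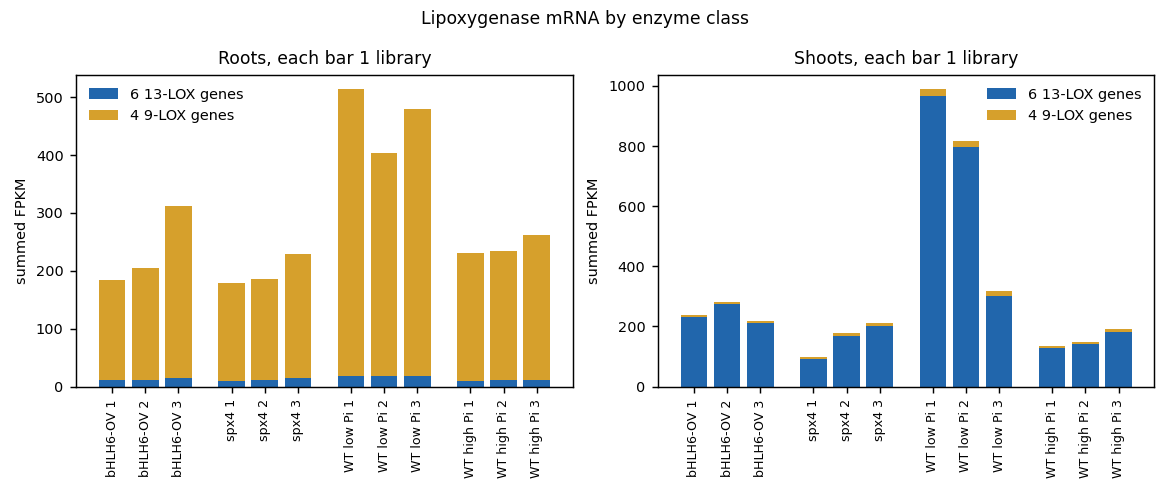
Summed FPKM of the 6 13-LOX genes (blue) and the 4 9-LOX genes (ochre) in each library, roots on the left and shoots on the right, with 1 bar per library and both axes starting at 0. Root bars are nearly all 9-LOX and shoot bars nearly all 13-LOX; the tallest bars in both organs are WT low Pi, where shoot replicate 3 (303 FPKM of 13-LOX) stands far below shoot replicate 1 (967 FPKM).

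Low Pi was compared with high Pi in WT to ask how Pi supply alone moves the family. In shoots, the 13-LOX genes rose broadly, and RCI-1 most. Of the 7 members tested in shoots, 6 were higher at low Pi and 0 were lower, in a comparison in which 48.2% of all 19990 genes tested were called, 22.2% as higher and 26.0% as lower. Of these 6, LOC_Os12g37320 reached the mean of 1 FPKM needed for a test only through the low Pi shoots, and it is part of the median that follows. The members' median log2 fold change was 1.14, beside -0.05 over all genes tested. LOC_Os12g37260 had 727, 620 and 155 FPKM in WT low Pi shoots, against 27.6, 33.4 and 86.7 FPKM in WT high Pi shoots. The ranges were apart, but both groups spread widely: low Pi replicate 3 was far below the other low Pi libraries, and high Pi replicate 3 far above the other high Pi libraries. The log2 fold change was 3.23 ± 0.62 (SE, limma adjusted p = 0.00142), and the ratio of the means was 10.2. Without WT low Pi shoot replicate 1 it was 2.82 (adjusted p = 0.0109), and leaving out any other library gave adjusted p-values no higher. LOC_Os12g37260 alone made up 73.6%, 75.8% and 48.8% of the 10 members' sum in the low Pi shoots, against 20.6%, 22.4% and 45.1% in the WT high Pi shoots.

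The short relatives of RCI-1 moved with it from a far lower base. LOC_Os12g37320 had 5.38, 4.22 and 1.54 FPKM in WT low Pi shoots, against 0, 0 and 0.243 FPKM in WT high Pi shoots, and 366 reads in all against 8. It was listed at 0 in most root libraries, and the fold change in shoots on the log2(FPKM + 1) scale was 2.03 ± 0.42 (adjusted p = 0.00239). Its means in WT high Pi, bHLH6-OV and spx4 shoots were 0.0811, 0.181 and 0.763 FPKM. LOC_Os12g37320 thus reached the mean of 1 FPKM needed for a test only through the low Pi shoots, so this p-value is no independent support for its rise. LOC_Os12g37350 had 2.01, 1.85 and 0.537 FPKM in WT low Pi shoots, against 0.0609, 0.139 and 0.103 FPKM in WT high Pi shoots, or 128 reads against 9. Its ranges were apart, yet its mean over the shoot libraries was under the minimum of 1 FPKM, so it was not tested, and its adjusted p was 0.00375 when every feature with a value above 0 was tested. For both relatives, replicate 3 was the lowest of the low Pi shoots, as it was for LOC_Os12g37260.

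The remaining 13-LOX genes rose less. LOC_Os08g39840, the herbivore-induced HI-LOX, had 159, 122 and 109 FPKM in WT low Pi shoots, against 73.4, 78.4 and 66 FPKM in WT high Pi shoots. Every low Pi library lay above every high Pi library, and the log2 fold change was 0.82 ± 0.23 (adjusted p = 0.0116). LOC_Os03g08220 had 39.6, 31.4 and 26.5 FPKM in WT low Pi shoots, against 19, 21.9 and 20.6 FPKM in WT high Pi shoots, again apart (0.62 ± 0.13, adjusted p = 0.00288). LOC_Os08g39850 had 33.9, 17 and 9.33 FPKM in WT low Pi shoots, against 7.32, 7.62 and 7.4 FPKM in WT high Pi shoots. Low Pi replicate 3 was barely above the high Pi libraries, and the change of 1.14 ± 0.43 (adjusted p = 0.0457) depended on single libraries: it was lost on leaving out any of the 6 except WT low Pi shoot replicate 3, with adjusted p-values from 0.00927 to 0.179. It was also lost under a pseudocount of 0.1, with no filter, on the TPM scale and with voom, at adjusted p-values up to 0.0833.

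Among the 9-LOX genes in shoots, LOC_Os03g49380 rose and the others were scarce. LOC_Os03g49380 had 18.9, 17.3 and 14.6 FPKM in WT low Pi shoots, against 5.56, 5.34 and 4.53 FPKM in WT high Pi shoots. The groups were well apart with little spread, the log2 fold change was 1.54 ± 0.13 (adjusted p = 3.51e-06), and the adjusted p was at most 3.74e-05 on leaving out any library. LOC_Os03g52860 had 1.92, 2.93 and 0.582 FPKM in WT low Pi shoots, against 0.084, 1.2 and 5.87 FPKM in WT high Pi shoots. The groups overlapped, WT high Pi replicates 1 and 3 being the lowest and highest of the 6 libraries, and it was not called (adjusted p = 0.957). LOC_Os03g49260 and LOC_Os03g49350 were below 1 FPKM in all 12 shoot libraries and were not tested there.

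**Figure D2:**
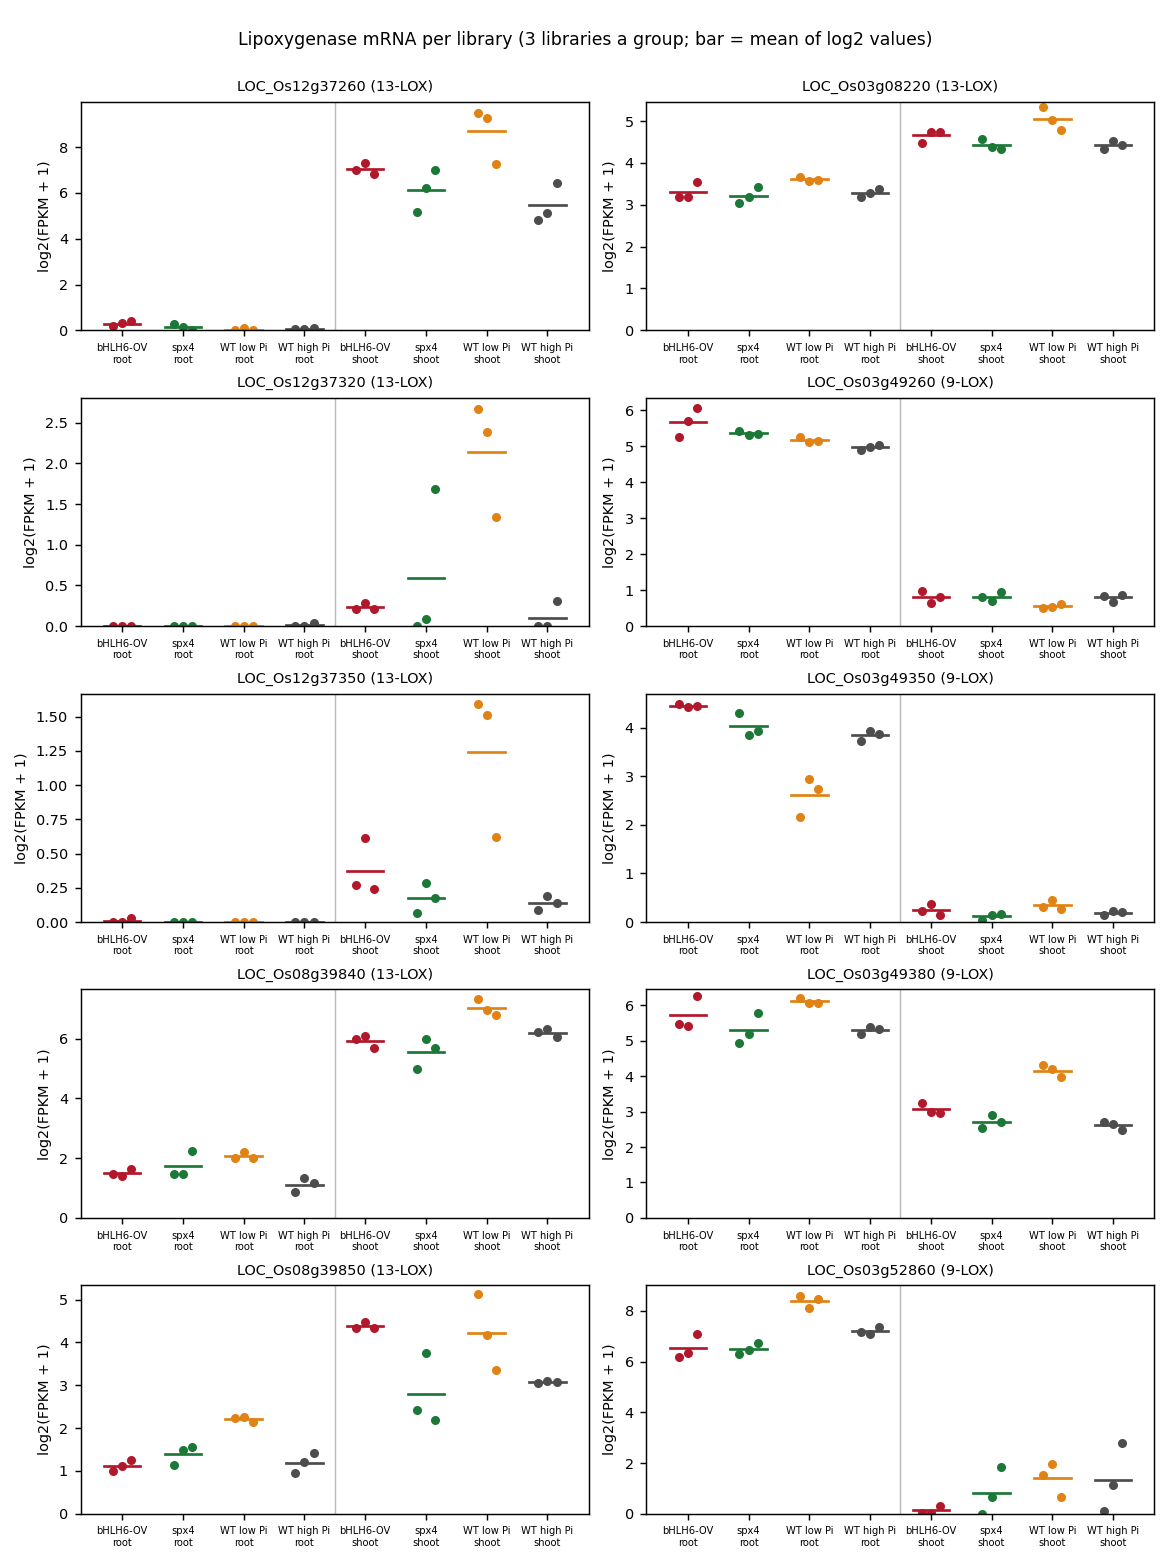
Level of each lipoxygenase in each library as log2(FPKM + 1), with 13-LOX LOC_Os12g37260 to LOC_Os08g39850 in the left column and 13-LOX LOC_Os03g08220 above the 4 9-LOX genes in the right column. Each dot is 1 library, each bar the mean of 3 log2 values, roots stand left of shoots, and the vertical scale differs between panels. The orange WT low Pi shoots are highest for the 13-LOX genes of chromosome 12, and the orange WT low Pi roots are highest for LOC_Os03g52860 and lowest for LOC_Os03g49350.

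**Figure D3:**
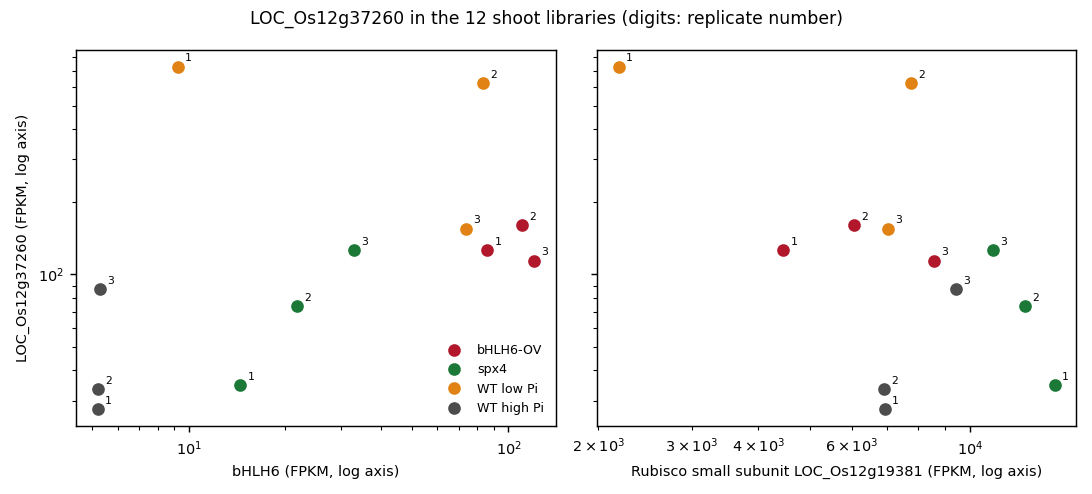
LOC_Os12g37260 (vertical log axis, FPKM) against bHLH6 (left, log axis, FPKM) and against the Rubisco small subunit gene LOC_Os12g19381 (right, log axis, FPKM) in the 12 shoot libraries, with the replicate number beside each point. WT low Pi replicate 1 has the most LOC_Os12g37260 (727 FPKM) with little bHLH6 (9.25 FPKM) and the least Rubisco RNA, whereas WT low Pi replicate 2 has nearly as much LOC_Os12g37260 (620 FPKM) with 83.1 FPKM of bHLH6 and 7769 FPKM of Rubisco RNA.

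Within the WT low Pi shoots, replicate 1 had 727 FPKM of LOC_Os12g37260, 9.25 FPKM of bHLH6 and 2186 FPKM of the Rubisco gene LOC_Os12g19381. Replicate 2 had 620, 83.1 and 7769 FPKM of the same 3 genes, and replicate 3 had 155, 73.8 and 7032 FPKM. The library highest in LOC_Os12g37260 was thus the lowest of its group in both other genes, and the part of either in its level was not tested. Over the 12 shoot libraries the Pearson correlation of LOC_Os12g37260 with bHLH6 was 0.45, a description of 4 clusters of 3 libraries that share their groups.

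In roots, low Pi moved members in both directions. Of the 7 members tested, 4 were higher and 1 was lower at low Pi, with 31.4% of 22090 genes called, 15.3% as higher and 16.1% as lower. The members' median log2 fold change was 0.82, beside 0.01 over all genes tested. LOC_Os03g52860, the main lipoxygenase of roots, had 382, 280 and 356 FPKM in WT low Pi roots, against 143, 137 and 164 FPKM in WT high Pi roots. No library overlapped, and the log2 fold change was 1.18 ± 0.21 (adjusted p = 0.00176). LOC_Os03g49380 had 72.6, 65.6 and 66.5 FPKM in WT low Pi roots, against 35.2, 40.7 and 39.3 FPKM in WT high Pi roots. Its groups were clearly apart and the change was 0.82 ± 0.23 (adjusted p = 0.0206). The call was lost, at adjusted p-values up to 0.07, without WT high Pi root replicate 1 or 3 or WT low Pi root replicate 1, while the fold change stayed between 0.76 and 0.86.

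LOC_Os03g49350, the neighbour of LOC_Os03g49380 12.3 kb upstream, went the other way. It had 3.46, 6.66 and 5.64 FPKM in WT low Pi roots, against 12.3, 14.3 and 13.7 FPKM in WT high Pi roots. The low Pi libraries were well below the others, with a log2 fold change of -1.24 ± 0.17 (adjusted p = 0.000322) that held on leaving out each library. LOC_Os03g49260, the third gene of the run, had 37.1, 33.5 and 34.2 FPKM in WT low Pi roots, against 29, 30.7 and 31.9 FPKM in WT high Pi roots, and was not called (adjusted p = 0.389). In total, the 9-LOX sum was 495, 385 and 462 FPKM in WT low Pi roots, against 220, 223 and 249 FPKM in WT high Pi roots, and most of the difference between these sums was LOC_Os03g52860.

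Both 13-LOX genes of chromosome 8 rose in low Pi roots, at levels far below those of shoots. LOC_Os08g39840 had 2.97, 3.58 and 2.97 FPKM in WT low Pi roots, against 0.81, 1.53 and 1.23 FPKM in WT high Pi roots (log2 fold change 0.94 ± 0.20, adjusted p = 0.00413). LOC_Os08g39850 had 3.69, 3.76 and 3.39 FPKM in WT low Pi roots, against 0.925, 1.3 and 1.69 FPKM in WT high Pi roots (1.01 ± 0.14, adjusted p = 0.000298). In both the groups were apart and each call held on leaving out each library. LOC_Os03g08220 had 11.6, 10.9 and 11.1 FPKM in WT low Pi roots, against 8.13, 8.79 and 9.3 FPKM in WT high Pi roots, apart by a small margin. Its change of 0.33 ± 0.12 missed the threshold (adjusted p = 0.0515). LOC_Os12g37260 stayed near the limit of detection, with 6 reads over the WT low Pi roots and 12 over the WT high Pi roots. Photosynthesis transcripts were lower in these roots too, with LOC_Os12g19381 at 1.47, 5.97 and 3.75 FPKM in WT low Pi roots against 26.8, 25 and 20.2 FPKM in WT high Pi roots; 4 of the 5 shoot markers tested were called lower, and their part in these results was not tested. Of the 3 listed root markers, LOC_Os03g01300 was called higher (0.73), LOC_Os02g51110 lower (-0.86) and RCc3 neither.

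Genes for the enzymes after the 13-lipoxygenases were mostly higher in low Pi shoots too. Of 7 genes from allene oxide synthase to jasmonate conjugation, 5 were higher and 1 was lower in WT low Pi shoots, where 48.2% of genes were called. The remaining gene, AOS2 (LOC_Os03g12500), was not called. It averaged 17.0 FPKM in WT low Pi shoots and 16.4 FPKM in WT high Pi shoots, where AOS1 averaged 8.96 FPKM. AOS1 (LOC_Os03g55800) had 20.8, 30.3 and 28.8 FPKM in WT low Pi shoots, against 8.53, 9.68 and 8.68 FPKM in WT high Pi shoots (log2 fold change 1.46 ± 0.15, adjusted p = 1.63e-05). AOC (LOC_Os03g32314) had 68.2, 65.7 and 57.6 FPKM in WT low Pi shoots, against 26.8, 30 and 28.9 FPKM in WT high Pi shoots (1.13 ± 0.08, adjusted p = 1.56e-06). OPR7 (LOC_Os08g35740), the reductase of the next step, had 63.3, 52.6 and 47.4 FPKM in WT low Pi shoots, against 22.8, 22.6 and 21.7 FPKM in WT high Pi shoots (1.24 ± 0.10, adjusted p = 2.33e-06). Each of these 3 genes stood apart between the groups in every library. The peroxisomal oxidase ACX1 (LOC_Os06g01390) rose by 0.41 ± 0.10 (adjusted p = 0.00637) and the conjugating enzyme JAR1 (LOC_Os05g50890) by 0.27 ± 0.09 (adjusted p = 0.0321). The JAR1 call was lost without WT high Pi shoot replicate 1 or 3 or WT low Pi shoot replicate 1. JAR2 (LOC_Os01g12160), another conjugating enzyme of the same family, fell to 2.65, 3.76 and 3.08 FPKM in WT low Pi shoots, against 7.56, 9.07 and 7.49 FPKM in WT high Pi shoots (log2 fold change -1.12 ± 0.17, adjusted p = 0.000265).

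The competing lyase branch did not move with them. HPL3 (LOC_Os02g02000), the leaf hydroperoxide lyase that competes for the same substrate, had 6.93, 19.3 and 20.2 FPKM in WT low Pi shoots, against 25.4, 26.4 and 32.8 FPKM in WT high Pi shoots. The groups were apart, with low Pi replicate 1 far below the rest, and the change was -0.95 ± 0.33 (adjusted p = 0.0326). That call was lost without WT low Pi shoot replicate 1, without any of the 3 WT high Pi shoot libraries, and with no filter on low values. Of 4 genes of jasmonate perception, MYC2 (LOC_Os10g42430), the jasmonate-responsive bHLH factor, rose to 46, 52.9 and 54.2 FPKM in WT low Pi shoots, against 24.5, 28.3 and 24.2 FPKM in WT high Pi shoots (0.96 ± 0.10, adjusted p = 1.36e-05). The receptor gene COI1b (LOC_Os05g37690) fell, with a change of -0.55 ± 0.09 (adjusted p = 0.0005), and COI1a and COI2 were not called.

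In roots the same 7 genes gave 2 higher and 1 lower at low Pi, where 31.4% of genes were called. AOS2 (LOC_Os03g12500) rose by 0.63 ± 0.16 (adjusted p = 0.0112) and JAR2 (LOC_Os01g12160) changed by -1.42 ± 0.29 (adjusted p = 0.00325). ACX1 (LOC_Os06g01390) rose by 0.29 ± 0.09 (adjusted p = 0.0283), a call that was lost on leaving out each library except WT low Pi root replicate 2. AOC, OPR7, AOS1 and JAR1 were not called in roots. The root hydroperoxide lyase LOC_Os02g12690, at 46.3, 52.4 and 55.6 FPKM in WT low Pi roots against 71.9, 70.5 and 76.1 FPKM in WT high Pi roots, fell with a change of -0.50 ± 0.10 (adjusted p = 0.00432). COI1b (LOC_Os05g37690) changed by -0.30 ± 0.09 (adjusted p = 0.0247), a call lost without WT high Pi root replicate 1 or 3 or WT low Pi root replicate 1. The plastid lipase gene EG1, which acts before the lipoxygenases, was too low to test in either organ.

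**Figure D4:**
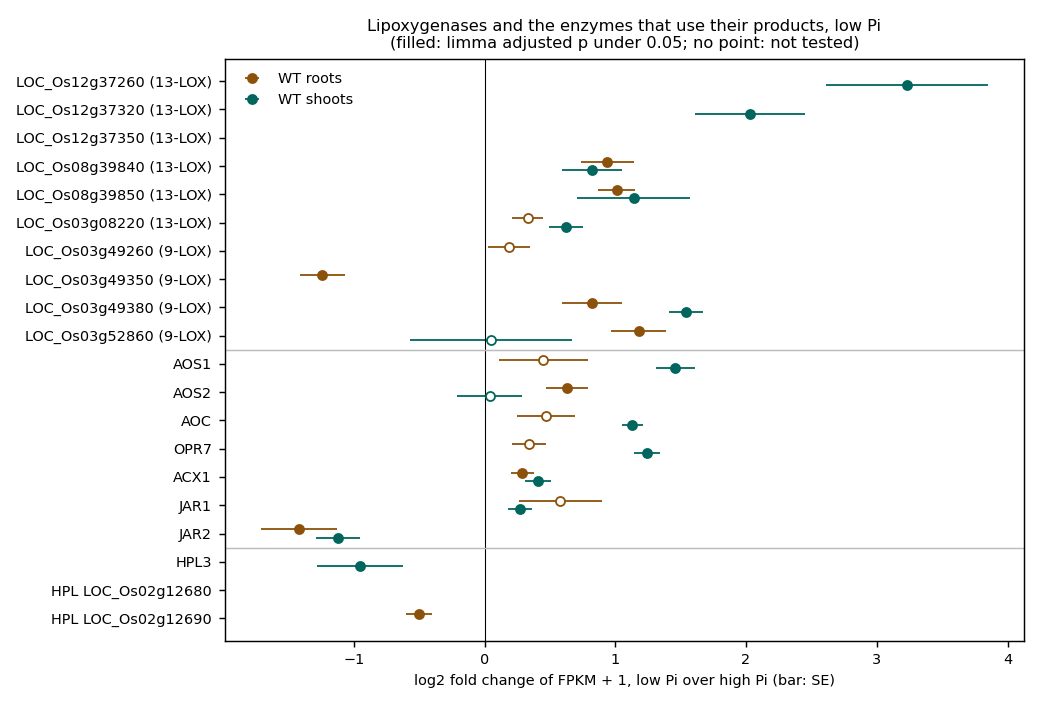
Log2 fold change of FPKM + 1 (horizontal axis, bar: SE) at low over high Pi in WT roots (brown) and WT shoots (green) for the 10 lipoxygenases, the 7 genes after them on the way to jasmonate and 3 hydroperoxide lyase genes, in pathway order from top to bottom. Filled points passed an adjusted p of 0.05 and a missing point was not tested. In shoots AOS1, AOC and OPR7 lie between 1.13 and 1.46, whereas JAR2 and HPL3 lie below 0.

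Overexpression of bHLH6 was set against WT at the same high Pi to ask how the factor moves the family; these WT libraries are the same controls as in the low Pi comparison. In roots, 2 of the 7 members tested were higher and 1 was lower in bHLH6-OV, beside 18.0% of all genes called, 7.62% as higher and 10.4% as lower. The members' median log2 fold change was 0.38, beside -0.02 over all genes tested. LOC_Os03g49260, the 9-LOX of stored grain, had 37.1, 51.2 and 66.1 FPKM in bHLH6-OV roots, against 29, 30.7 and 31.9 FPKM in WT high Pi roots. All bHLH6-OV libraries were higher, and the change of 0.70 ± 0.16 (adjusted p = 0.011) held on leaving out each library. Its neighbour LOC_Os03g49350 had 21.3, 20.6 and 20.7 FPKM in bHLH6-OV roots, against 12.3, 14.3 and 13.7 FPKM in WT high Pi roots. The groups were tight and apart, with a change of 0.60 ± 0.17 (adjusted p = 0.0337). The call was nonetheless lost on leaving out any 1 of the 6 libraries, at adjusted p-values from 0.067 to 0.106, and with no filter (0.0595), while the change stayed between 0.54 and 0.64.

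LOC_Os03g52860 had 71.9, 80.6 and 135 FPKM in bHLH6-OV roots, against 143, 137 and 164 FPKM in WT high Pi roots. All bHLH6-OV libraries were lower, replicate 3 only just, and the change was -0.68 ± 0.21 (adjusted p = 0.0486). Leaving out any library except bHLH6-OV root replicate 3 ended the call, with adjusted p-values from 0.00429 to 0.172. So did a pseudocount of 0.1 and the lack of a filter. Set side by side, LOC_Os03g52860 was lower in bHLH6-OV roots and higher in WT low Pi roots, and LOC_Os03g49350 was higher in bHLH6-OV roots and lower in WT low Pi roots. LOC_Os03g49380 had 43.7, 41.9 and 75.5 FPKM in bHLH6-OV roots, against 35.2, 40.7 and 39.3 FPKM in WT high Pi roots, and was not called.

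Replicate 3 of the bHLH6-OV roots was the highest of its group for each of the 7 genes after lipoxygenase except JAR2. It was also the highest for every member tested in roots except LOC_Os03g49350, and for LOC_Os12g37260. Replicate 3 of the spx4 roots was likewise the highest of its group for each of the 7 genes except JAR2, with AOS1 at 13.4, 15 and 25.5 FPKM in spx4 roots. Among the members tested, that spx4 library was the highest of its group for all but LOC_Os03g49260 and LOC_Os03g49350. AOS1 (LOC_Os03g55800) was at 16.9, 12.6 and 40.7 FPKM, AOC (LOC_Os03g32314) at 64.7, 58.1 and 107 FPKM and JAR1 (LOC_Os05g50890) at 45.8, 32.9 and 74.7 FPKM in bHLH6-OV roots. None of the 7 genes was called in this comparison, 1 of them at an unadjusted p under 0.05, against 7225 of all genes. LOC_Os12g37260 had 0.127, 0.235 and 0.307 FPKM in bHLH6-OV roots, against 0.042, 0.0344 and 0.0583 FPKM in WT high Pi roots, or 67 reads against 12. It was too low to test. The 5 shoot markers tested were called higher in the same roots, with the Rubisco gene LOC_Os12g19381 at 94.9, 109 and 79.6 FPKM in bHLH6-OV roots against 26.8, 25 and 20.2 FPKM in WT high Pi roots, and their part in the root values was not tested. The 3 genes listed as root markers were mixed: RCc3 (LOC_Os02g44310) and LOC_Os03g01300 were called lower in bHLH6-OV roots, with changes of -0.80 and -0.52, and LOC_Os02g51110 was not called, at 1448, 1220 and 1065 FPKM in bHLH6-OV roots against 925, 925 and 977 FPKM in WT high Pi roots.

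In shoots, 2 of the 7 members tested were higher and 0 were lower in bHLH6-OV, where 31.3% of genes were called, 14.0% as higher and 17.3% as lower. LOC_Os08g39850 had 19.3, 21.4 and 19.2 FPKM in bHLH6-OV shoots, against 7.32, 7.62 and 7.4 FPKM in WT high Pi shoots. The groups were far apart and each was tight, the ratio of means was 2.69 and the change was 1.31 ± 0.43 (adjusted p = 0.0381). Its error was that of a fit shared with the spread-out spx4 and WT low Pi libraries. The call was lost on leaving out any of the 6 libraries, at adjusted p-values from 0.0765 to 0.0974, while the change stayed between 1.26 and 1.34. LOC_Os03g49380 had 8.44, 6.94 and 6.79 FPKM in bHLH6-OV shoots, against 5.56, 5.34 and 4.53 FPKM in WT high Pi shoots (0.45 ± 0.13, adjusted p = 0.021). Although the groups did not overlap, the call was lost without WT high Pi shoot replicate 3 or bHLH6-OV shoot replicate 1, at adjusted p-values up to 0.0865.

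LOC_Os12g37260 had 126, 160 and 114 FPKM in bHLH6-OV shoots, against 27.6, 33.4 and 86.7 FPKM in WT high Pi shoots. The groups did not overlap, but WT replicate 3 came close, and the change of 1.59 ± 0.62 was not called (adjusted p = 0.0727). Without WT high Pi shoot replicate 3 it was called, at an adjusted p of 0.041, and over the libraries left out the adjusted p ran up to 0.214. LOC_Os08g39840 had 62.7, 66.9 and 50.3 FPKM in bHLH6-OV shoots, against 73.4, 78.4 and 66 FPKM in WT high Pi shoots, and was not called. The levels of LOC_Os12g37260 thus ordered as WT low Pi (501 FPKM), bHLH6-OV (134 FPKM), spx4 (78.2 FPKM) and WT high Pi (49.2 FPKM) in shoots, with each neighbouring pair overlapping in range.

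Among the 7 genes after lipoxygenase, 1 was higher and 2 were lower in bHLH6-OV shoots, beside 14.0% and 17.3% of all genes. AOS2 (LOC_Os03g12500) fell to 1.86, 4.03 and 4.01 FPKM in bHLH6-OV shoots, against 18.1, 16.2 and 14.8 FPKM in WT high Pi shoots (log2 fold change -2.05 ± 0.25, adjusted p = 0.000147). AOS1 (LOC_Os03g55800) had 4.99, 6.22 and 6.61 FPKM in bHLH6-OV shoots, against 8.53, 9.68 and 8.68 FPKM in WT high Pi shoots (-0.53 ± 0.15, adjusted p = 0.0197). OPR7 (LOC_Os08g35740) was higher by 0.34 ± 0.10 (adjusted p = 0.0216). Both groups were apart for each of the 3 genes. The AOS1 call was lost without WT high Pi shoot replicate 2 or bHLH6-OV shoot replicate 1 and on the TPM scale, and the OPR7 call on leaving out any library except bHLH6-OV shoot replicate 1. COI1b (LOC_Os05g37690) was lower by a change of -0.33 ± 0.09 (adjusted p = 0.019), a call lost on the TPM scale and on leaving out WT high Pi shoot replicate 1 or 2 or bHLH6-OV shoot replicate 1 or 3.

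**Figure D5:**
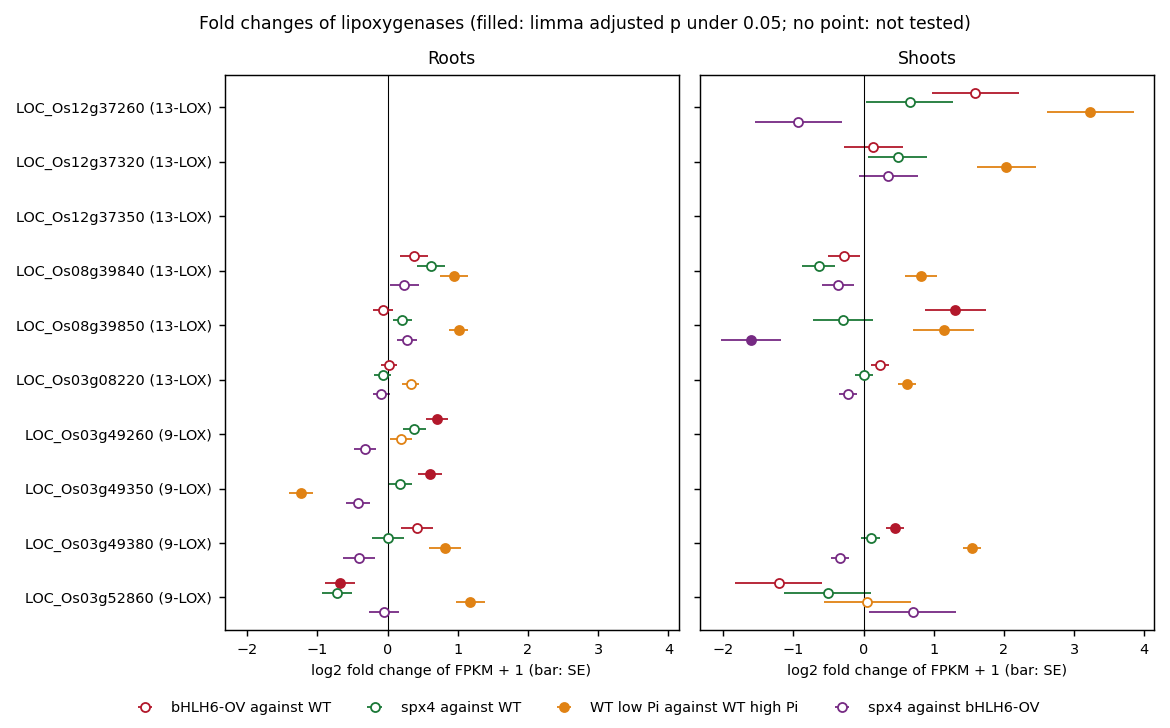
Log2 fold change of FPKM + 1 (horizontal axis, bar: SE) of each lipoxygenase in roots (left) and shoots (right) for bHLH6-OV against WT, spx4 against WT and WT low against high Pi, which share the WT high Pi libraries, and for spx4 against bHLH6-OV. Filled points passed an adjusted p of 0.05 and a missing point was not tested. The only filled spx4 point is LOC_Os08g39850 in shoots against bHLH6-OV, at -1.60.

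The spx4 line carries a disrupted SPX4, a gene of the Pi-sensing SPX family. No member was called against WT in spx4 roots, where limma called 2.46% of genes (0.634% higher and 1.82% lower), or in spx4 shoots, where it called 2.14% (0.725% higher and 1.42% lower). At an unadjusted p under 0.05 there were 3 members in roots (2910 of all genes) and 1 in shoots (3085 of all genes), and limma voom on rebuilt reads called 0 members in both organs. In roots, LOC_Os03g52860 had 77.2, 87.2 and 105 FPKM in spx4, against 143, 137 and 164 FPKM in WT high Pi. The spx4 libraries were all lower, with a change of -0.72 ± 0.21 and an adjusted p of 0.128. LOC_Os08g39840 had 1.79, 1.79 and 3.76 FPKM in spx4 roots, against 0.81, 1.53 and 1.23 FPKM in WT high Pi roots (0.62 ± 0.20, adjusted p = 0.161). Replicate 3 was far above the others of its group. LOC_Os03g49260 had 42.2, 38.6 and 39.3 FPKM in spx4 roots, against 29, 30.7 and 31.9 FPKM in WT high Pi roots (0.38 ± 0.16, adjusted p = 0.313), and these groups were apart as well.

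In spx4 shoots LOC_Os08g39840 had 30.8, 62.4 and 50.9 FPKM, against 73.4, 78.4 and 66 FPKM in WT high Pi shoots. The spx4 libraries were lower and the change was -0.64 ± 0.23 (adjusted p = 0.197). The other 13-LOX genes varied within the spx4 shoots as much as between groups. LOC_Os12g37260 had 34.7, 73.7 and 126 FPKM and LOC_Os08g39850 had 4.35, 12.6 and 3.57 FPKM in spx4 shoots, and both overlapped the WT high Pi shoots. In spx4 roots LOC_Os12g37260 had 0.195, 0.11 and 0.00874 FPKM, and the Rubisco gene LOC_Os12g19381 had 89.8, 57.7 and 28.9 FPKM in the same libraries, in the same order. The orders differed in bHLH6-OV roots, where replicate 3 was highest for LOC_Os12g37260 (0.307 FPKM) and lowest for LOC_Os12g19381 (79.6 FPKM). Of the 5 shoot markers, 1 was called higher in spx4 roots, and their part was not tested. None of the 7 genes after lipoxygenase was called in either spx4 organ, with 0 and 3 of them at an unadjusted p under 0.05 in roots and shoots.

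The 2 lines were also compared directly. In roots no member was called in spx4 against bHLH6-OV, with 6.58% of genes called (3.12% higher and 3.46% lower); 1 member and 4978 of all genes had an unadjusted p under 0.05, and voom called 0 members. That member, LOC_Os03g49350, had 18.7, 13.4 and 14.2 FPKM in spx4 roots, against 21.3, 20.6 and 20.7 FPKM in bHLH6-OV roots (-0.42 ± 0.17, adjusted p = 0.174). The spx4 libraries were all lower. With same-numbered libraries of these groups taken as pairs, LOC_Os03g49380 was called lower in spx4 roots (adjusted p = 0.0176). In shoots 1 member was lower in spx4, with 32.0% of genes called, 18.3% as higher and 13.8% as lower. LOC_Os08g39850 had 4.35, 12.6 and 3.57 FPKM in spx4 shoots, against 19.3, 21.4 and 19.2 FPKM in bHLH6-OV shoots. All spx4 libraries were lower, replicate 2 least so, and the change was -1.60 ± 0.43 (adjusted p = 0.0164). The call was lost, at adjusted p-values up to 0.0675, without bHLH6-OV shoot replicate 2 or spx4 shoot replicate 1 or 3. On the TPM scale 14.5% of the calls over all genes were higher, against 57.0% as deposited, and 3 members were called.

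Whether an effect differed between the organs was tested directly over all 24 libraries. The bHLH6-OV effect differed between root and shoot for 3 of the 8 members tested, beside 29.4% of all genes (15.1% with a higher and 14.3% with a lower value in roots). These were LOC_Os08g39850, LOC_Os03g49260 and LOC_Os03g49350. The low Pi effect differed for LOC_Os12g37260, LOC_Os03g49350 and LOC_Os03g49380, again 3 of 8, beside 37.9% of all genes (18.6% higher and 19.3% lower). LOC_Os12g37260 in roots and LOC_Os03g49260 and LOC_Os03g49350 in shoots were below 1 FPKM in every library, where log2(FPKM + 1) holds any change near 0, so for these 3 genes the difference largely restates the change in the other organ. The spx4 effect differed for 1 of 8, LOC_Os08g39840, beside 1.83% of all genes (0.748% higher and 1.08% lower).

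Within an organ the members did not vary as one. Over the 12 shoot libraries LOC_Os12g37260 correlated with LOC_Os12g37320 at a Pearson r of 0.87 and with the 9-LOX gene LOC_Os03g49380 at 0.85. LOC_Os12g37320 passed the filter only through the WT low Pi shoots, where both genes were highest, so its r is no independent support. The chromosome 8 neighbours LOC_Os08g39840 and LOC_Os08g39850 reached 0.57 over the 12 shoot libraries and 0.77 over the 12 root libraries. Over the 12 root libraries LOC_Os03g08220 and LOC_Os03g49380 correlated at 0.94, and LOC_Os03g49350 ran against LOC_Os03g52860 at -0.92. These values describe log2(FPKM + 1) in libraries that share groups and differ in depth. The genes most like LOC_Os12g37260 over the 24 libraries were the Bowman-Birk proteinase inhibitor genes LOC_Os01g03320 and LOC_Os01g03310 (r = 0.992 for both), which encode small inhibitors of serine proteases, and the leucine-rich repeat gene LOC_Os10g33130 (0.988). The first of these had 647, 387 and 135 FPKM in WT low Pi shoots, against 15.8, 31.8 and 95.1 FPKM in WT high Pi shoots. Low Pi replicate 3 was lowest and WT replicate 3 highest of their groups, as for LOC_Os12g37260, and within the 12 shoot libraries r was 0.95.

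The other members also differed strongly between organs, so r within the organ of higher expression is given beside r over 24 libraries. LOC_Os03g52860 was most like LOC_Os06g49660, a transferase (0.986 over 24 libraries, 0.98 over 12 roots), LOC_Os02g47640, an F-box gene (0.986, 0.93), and LOC_Os09g32470 (0.985, 0.89). LOC_Os03g49350 was most like the homeobox gene LOC_Os02g54520 (0.996, 0.97), LOC_Os01g10180 (0.996, 0.98) and the cytochrome P450 gene LOC_Os10g08540 (0.996, 0.98). LOC_Os03g49380 was most like the phosphofructokinase gene LOC_Os06g13810 (0.988, 0.79), LOC_Os02g48990 (0.986, 0.77) and LOC_Os12g35590 (0.985, 0.9). LOC_Os03g49260 was most like LOC_Os03g06000, LOC_Os01g14650 and LOC_Os12g22800 (0.996 for each), with lower values of 0.68, 0.66 and 0.66 within roots. Over 24 and 12 shoot libraries, LOC_Os08g39840 was most like LOC_Os03g51920 (0.989, 0.96), LOC_Os01g37040 (0.988, 0.87) and LOC_Os04g02910 (0.988, 0.74). LOC_Os08g39850 was most like LOC_Os05g29920 (0.973, 0.94), the oligopeptide transporter family gene LOC_Os10g33210 (0.971, 0.94) and LOC_Os12g07580 (0.971, 0.89). LOC_Os03g08220 was most like the alpha/beta hydrolase gene LOC_Os07g06830 (0.984, 0.91), LOC_Os02g33330 (0.981, 0.89) and LOC_Os01g58194 (0.981, 0.88). Genes named by locus alone carry no description in the table.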

How the data were processed

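Messenger RNA libraries, 24 in all, were grouped by the labels' genotype, tissue and Pi supply. Per the submitters' processing notes, HISAT2, StringTie, featureCounts 1.5.0-p3 and DESeq2 were used; their settings and the genome build are not given in the sources used here. The unit of the values is FPKM, as deposited by the authors. In each library, FPKM multiplied by gene length was a whole number of steps of 1 size (100% of features, tolerance 0.01 reads), and these steps were read as reads. The authors' divisor was 1.0081 to 1.0179 times the median-of-ratios size factor times the geometric mean library total, so deposited FPKM are already scaled between libraries, which TPM undoes.

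Genes with a mean of at least 1 FPKM over a tissue's 12 libraries were fitted as log2(FPKM + 1) with limma 3.58.1 (robust, with trend) in R 4.3.3, with Benjamini-Hochberg adjustment over all 22090 (root) or 19990 (shoot) genes, and over 22980 genes in the 24-library fits. Of the 10 members, 7 passed in each tissue and 8 in the 24-library fits. An adjusted p under 0.05 is a call. As the fold scale is log2(FPKM + 1), changes of low genes are understated. Intervals and floors for counting error were not needed, and 3 pooled libraries per group limit every p-value to the spread between such pools.

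Members and lists were chosen with earlier results of these data known. Named are all members, called genes of the pathway lists, and for members with at least 5 FPKM in a group the 3 genes of highest correlation. Class, symbols and roles of loci are published assignments known to the analyst, since the table pairs loci with descriptions only. One gene listed as a root marker, LOC_Os03g01300, was also abundant in shoots.

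Alternatives were a pseudocount of 0.1, no filter, TPM, a replicate block and leaving out each library, and, added after seeing the data, limma voom on rebuilt reads and a block in bHLH6-OV and spx4 roots. Labels give no meaning to replicate numbers. The numbers were taken to pair libraries where each of the 3 same-numbered correlations of deviations from group means was over 0.1, which held for bHLH6-OV with spx4 roots (0.22 to 0.48). Unlike-numbered libraries of these root groups ran from -0.37 to 0.20, with 0.11 and 0.20 between replicates 1 and 2, so the pairing by number is uncertain. Other groups came close, with 0.07 to 0.16 for bHLH6-OV with WT high Pi roots and 0.09 to 0.20 for the same groups in shoots. The fits were also run on simulated counts with the same spread for every gene and group. These libraries vary more unevenly, so that run does not show how the fits perform on them. Tables and plots were made with Python 3.11.15, pandas 2.3.3, numpy 2.4.6 and matplotlib 3.10.9.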

Additional observations from a re-analysis of the deposited data

Results flagged for a closer look

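These effects of bHLH6-OV, spx4 or low Pi differed between root and shoot by limma's test of the difference over 24 libraries. For the bHLH6-OV effect, LOC_Os08g39850 changed by 1.31 in shoots and was not called in roots, a difference (root minus shoot) of -1.38 ± 0.48 with an adjusted p of 0.0358. It was lost with voom (0.145) and without any of 10 of the 12 libraries involved, at adjusted p-values up to 0.0829. LOC_Os03g49260 changed by 0.70 in roots and was at 0.564 to 0.951 FPKM in bHLH6-OV shoots and 0.597 to 0.835 FPKM in WT high Pi shoots (0.69 ± 0.19, adjusted p = 0.0117). LOC_Os03g49350 changed by 0.60 in roots and averaged 0.19 FPKM in bHLH6-OV shoots and 0.145 FPKM in WT high Pi shoots (0.55 ± 0.20, adjusted p = 0.0498). Both genes passed the filter through roots, and below 1 FPKM the log2(FPKM + 1) scale holds the shoot change near 0, so these differences largely restate the root changes and do not show that the organs differ in fold. With voom the adjusted p-values were 0.223 and 0.785. The difference of LOC_Os03g49350 was also lost without any of 11 of the 12 libraries, at adjusted p-values up to 0.109.

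For the spx4 effect, LOC_Os08g39840 was at 0.62 in roots and -0.64 in shoots, neither called alone, and the difference was 1.26 ± 0.31 (adjusted p = 0.0434). It was lost with voom (0.111), with no filter (0.063) and without any of 7 of the 12 libraries involved, at adjusted p-values up to 0.123.

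For the low Pi effect, LOC_Os12g37260 changed by 3.23 in shoots and was near 0 reads in roots, a difference of -3.26 ± 0.66 (adjusted p = 0.00077). With 6 and 12 reads in all in WT low Pi and WT high Pi roots, the root change is held near 0 on this scale, so the difference largely restates the shoot change; with voom on rebuilt reads the adjusted p was 0.276. LOC_Os03g49350 changed by -1.24 in roots and was below 1 FPKM in shoots, which again holds the shoot change near 0 (-1.39 ± 0.20, adjusted p = 2.97e-05; 0.0224 with voom). LOC_Os03g49380 changed by 0.82 in roots and 1.54 in shoots (-0.72 ± 0.28, adjusted p = 0.0467), and this was lost without any of 11 of the 12 libraries.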

How the results depend on the processing

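The edgeR and DESeq2 alternatives planned for rebuilt reads were not run; limma voom was run on those reads in their place. Members called under low Pi stayed at 4 to 5 in roots and 5 to 6 in shoots on leaving out 1 library, and at 8 for root against shoot. Other counts moved. Leaving out 1 library gave 1 to 2 for bHLH6-OV roots (3 as reported), 0 to 1 for spx4 against bHLH6-OV roots (0), 0 to 2 for bHLH6-OV shoots (2), 0 to 2 for spx4 against bHLH6-OV shoots (1), 1 to 2 for the bHLH6-OV effect between organs (3), 0 to 1 for the spx4 effect (1). The labels give replicate numbers no meaning, and bHLH6-OV with spx4 roots was the only pair of groups in which each same-numbered correlation was over 0.1. With the replicate block the spx4 effect gave 0 members (LOC_Os08g39840 at an adjusted p of 0.0503), LOC_Os03g49350 was at an adjusted p of 0.0527 in bHLH6-OV roots, and the block in bHLH6-OV and spx4 roots alone gave 1. With the replicate block on all groups LOC_Os03g08220 was called in low Pi roots (adjusted p = 0.0267). With no filter, bHLH6-OV shoots gave 1, the bHLH6-OV effect 1 and the spx4 effect 0. A pseudocount of 0.1 gave 1 for the bHLH6-OV effect, voom gave 0 for both the bHLH6-OV and the spx4 effect, and TPM gave 3 for spx4 against bHLH6-OV shoots. The causes were not tested. On the TPM scale the higher share of calls over all genes was 75.6% in bHLH6-OV shoots (44.7% as deposited), 23.4% in spx4 shoots (33.9%), 58.8% in low Pi shoots (46.1%) and 68.8% for root against shoot (53.8%). Between organs it was 30.0%, 51.5% and 33.0% for the bHLH6-OV, spx4 and low Pi effects (51.2%, 41.0% and 49.1%). The median of all genes tested was 0.15 in bHLH6-OV shoots (-0.05) and -0.24 in spx4 against bHLH6-OV shoots (0.06). These TPM values cover genes filtered on mean TPM, not the same set as on the deposited scale. Of the 88 fold changes of members tested, 21 turned sign in at least 1 setting, and 0 of these 21 were called. Under TPM, LOC_Os03g08220 went to -0.1 for spx4 against WT shoots (0.01 as reported) and to 0.05 for the spx4 effect between organs (-0.07), and LOC_Os03g49380 to 0.03 for that effect between organs (-0.09). Under voom LOC_Os12g37320 went to -0.26 for spx4 against bHLH6-OV shoots (0.35) and LOC_Os12g37260 to 0.51 for the bHLH6-OV effect (-1.37). Under a pseudocount of 0.1 and voom, LOC_Os03g52860 went to 0.26 and 0.78 for the spx4 effect (-0.21), and LOC_Os08g39850 to 0.21 and 0.28 for the low Pi effect (-0.13).

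Leaving out 1 library turned the sign within these ranges. In bHLH6-OV against WT roots they were -0.19 to 0.05 for LOC_Os08g39850 and -0.1 to 0.09 for LOC_Os03g08220. In spx4 against WT roots they were -0.17 to 0.02 for LOC_Os03g08220 and -0.23 to 0.2 for LOC_Os03g49380. In spx4 against bHLH6-OV roots they were -0.02 to 0.37 for LOC_Os08g39840, -0.2 to 0.03 for LOC_Os03g08220 and -0.23 to 0.22 for LOC_Os03g52860. In spx4 against WT shoots they were -0.06 to 0.79 for LOC_Os12g37320, -0.77 to 0.01 for LOC_Os08g39850, -0.06 to 0.06 for LOC_Os03g08220 and -1.12 to 0.21 for LOC_Os03g52860. In shoots they were also -0.56 to 0.77 for LOC_Os03g52860 under low Pi and -0.19 to 0.65 for LOC_Os12g37320 in spx4 against bHLH6-OV. Between organs they were -0.29 to 0.13 for LOC_Os03g49380 and -0.18 to 1.15 for LOC_Os03g52860 (bHLH6-OV effect), -0.18 to 0.01 for LOC_Os03g08220, -0.34 to 0.1 for LOC_Os03g49380 and -0.93 to 0.4 for LOC_Os03g52860 (spx4 effect), and -0.01 to 0.27 for LOC_Os08g39840 and -0.56 to 0.32 for LOC_Os08g39850 (low Pi effect).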

Other observations

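Of the 8 other features described as lipoxygenases, 3 of the 4 tested in roots and 2 of the 3 tested in shoots were higher at low Pi in WT, beside 15.3% of all genes in roots and 22.2% in shoots. LOC_Os05g23880 averaged 82 FPKM in WT low Pi shoots and 36.1 FPKM in WT high Pi shoots (log2 fold change 1.10 ± 0.22, limma adjusted p = 0.00162), and LOC_Os04g37430 averaged 31.9 FPKM in WT low Pi shoots and 10.2 FPKM in WT high Pi shoots (1.51 ± 0.20, adjusted p = 9.75e-05). The calls of both genes in roots, with changes of 0.24 and 0.81, were lost at adjusted p-values up to 0.081 and 0.0955: for LOC_Os05g23880 without any WT high Pi root library or WT low Pi root replicate 2, and for LOC_Os04g37430 without any of the 6 libraries except WT low Pi root replicate 3. In roots LOC_Os11g36719 averaged 9.59 FPKM at low Pi and 6.14 FPKM at high Pi (0.57 ± 0.12, adjusted p = 0.0036) and was listed at 0 in the WT high Pi shoots. LOC_Os02g10120 averaged 0.156 FPKM in WT high Pi roots and 56.8 FPKM in WT high Pi shoots (-5.62 ± 0.48, adjusted p = 8.32e-10). These genes were named after their values were seen.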
